A study of Mus musculus with 31 samples.

Results

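This account follows the response of the mouse uterus to 17β-estradiol (E2) when its estrogen receptor α (ERα, gene Esr1) lacks activation function 2. It rests on 7 arrays of 31 in the series: 3 from AF2 KO mice given E2 and 4 from AF2 KO mice given placebo, chosen by those labels. A further 8 arrays, 4 from AF2 WT mice given E2 and 4 from AF2 WT mice given placebo, serve for comparison. Every group carries the C57BL6/J background, was ovariectomised at 4 weeks of age, then had 3 weeks without ovaries on a normal diet. Total RNA of the uterus was taken at 6 h. The oil injected under the skin held 8 µg/kg of E2 or, for placebo, 0 µg/kg. The labels do not say how many mice stand behind an array, so p-values measure the spread between samples. Except where said, that spread was estimated over all 31 arrays of the series. These include MISS KO and MISS WT mice given E2 or placebo, whose responses are not described here. The labels also do not give the altered position of Esr1, and name no promoter or Cre line.

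Estrogen receptor α is a transcription factor that E2 switches on. It carries 2 transactivating regions: activation function 1 near its amino end, which works without hormone, and activation function 2 in the ligand-binding domain, which recruits coactivators once E2 is bound. In the uterus, E2 acting through ERα sets off within hours a wave of transcription, water uptake and protein synthesis, and later epithelial division. Loss of activation function 2 leaves the DNA-binding domain and activation function 1 in place.

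Levels below are log2 intensities relative to the 75th percentile of the array, so 0 is the level of that percentile and a difference of 1 is 2-fold. A gene is read by the probe with its highest mean level. A gene is bright if that probe was well above background on all 7 AF2 KO arrays, which held for 24368 genes or features, and dim otherwise, which held for 10373. Genes were called at an adjusted p under 0.05 by limma with Benjamini-Hochberg adjustment over all 55681 probes. The 75th percentile ran over 474.7 to 701.7 intensity units on AF2 KO E2 arrays and 632.5 to 787.1 on AF2 KO placebo arrays. The share of probes well above background was 71.2 to 77.1% with E2 and 67.9 to 72.7% with placebo. Replicate 1 of AF2 KO E2 had the lowest percentile of these 7 arrays. The arrays lie on 4 slides. Slides 1, 3 and 4 each hold 1 array of both groups, which gives 3 differences within a slide, and slide 2 holds only a placebo array.

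Esr1 itself did not change with E2 in AF2 KO uteri. Its brightest probe (chromosome 10, 5343056 to 5343115, mm9) had levels of 2.80, 3.04 and 2.97 with E2, against 3.06, 2.88, 2.97 and 2.90 with placebo. These groups overlap, and the difference was −0.02 ± 0.14 (SE). The other Esr1 probes differed by −0.14, −0.13 and 0.10, with 0 of 4 called. Placebo arrays of the 2 genotypes differed most at 5379218 to 5379277, where AF2 KO had −1.22 ± 0.08 and AF2 WT 0.53 ± 0.17 (SD, n = 4 each). Since the altered position is not given, no Esr1 probe checks the genotype.

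The question of the comparison is how much of the hormone's action is left without activation function 2. Of 24368 bright genes, 463 were called higher (1.9%) and 91 lower (0.373%) with E2 in AF2 KO, 2.27% in all. Over all 34741 genes or features 3.03% were called, and by probe 2.01% of bright and 4.15% of dim ones. In AF2 WT, 6823 of the same bright genes were higher (28%) and 7158 lower (29.4%), 57.4% in all. The difference between the responses, AF2 KO minus AF2 WT, was called for 12163 bright genes (49.9%), 6471 with a positive (26.6%) and 5692 with a negative difference (23.4%). With the 75th percentile taken over probes bright on every array, that split was 9069 and 4380. In AF2 WT, 6046 bright genes passed the test and moved 2-fold or more. For 5291 of them the 95% interval of the AF2 KO response lay within 2-fold either way, about the same share as the 21122 of all 24368 bright genes. Among these 6046, 17 were called in the same direction in AF2 KO and 121 in the opposite one.

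**Figure D1:**
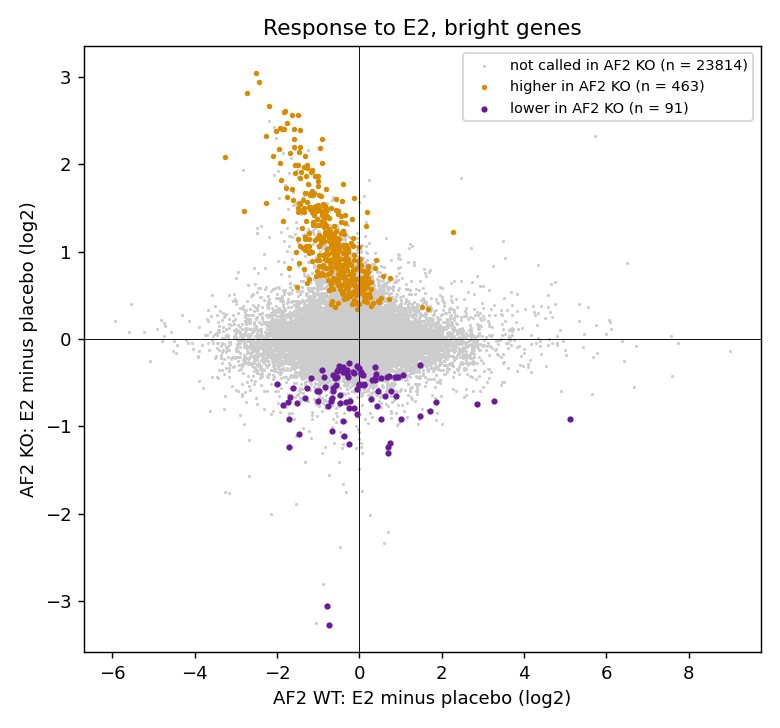
Response to E2 of 24368 bright genes, AF2 KO on the vertical axis against AF2 WT on the horizontal axis, both as E2 minus placebo on the log2 scale, with 1 point per gene. Points spread along the AF2 WT axis and stay near 0 on the AF2 KO axis; the 463 genes called higher in AF2 KO (orange) lie mostly left of 0 in AF2 WT, and the 91 called lower (purple) lie on both sides.

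The count of calls in AF2 KO depended on which arrays were in the fit. With only the 7 AF2 KO arrays, which leaves 5 degrees of freedom for the spread, 73 bright genes were higher and 0 lower by limma, and 2743 bright genes had an unadjusted p under 0.05, against 3562 with all 31 arrays. Without AF2 KO E2 replicate 1, 113 were higher and 10 lower; without AF2 KO E2 replicate 2, 259 and 44; without AF2 KO E2 replicate 3, 577 and 36. Without AF2 KO placebo replicate 1 the counts were 277 and 23, without replicate 2 they were 258 and 27, and without replicate 4 they were 315 and 26. With slide as a fixed block, which the main fit leaves out, 1336 bright genes were higher and 386 lower, 7.07% in all. In the authors' matrix, 335 were higher and 147 lower.

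Textbook targets that E2 raises through ERα did not pass the test in AF2 KO, apart from Igf1. Gdf15, a stress-induced growth factor and the target with the largest rise in AF2 WT, had levels of −4.20, −2.78 and −4.64 with E2 in AF2 KO, against −3.74, −4.14, −3.32 and −3.72 with placebo. The groups overlap, and the difference of −0.14 ± 0.31 (SE) stands against 9.0 in AF2 WT. Ramp3, which escorts calcitonin-family receptors, gave 0.37 ± 0.34 in AF2 KO and 5.55 in AF2 WT. Its AF2 KO levels did not overlap, at −0.58 to −0.26 with E2 and −0.92 to −0.63 with placebo, yet the change missed the call at adjusted p = 0.693 by limma. Cdkn1a, an inhibitor of the cell cycle, gave 0.38 ± 0.19 in AF2 KO and 4.23 in AF2 WT. Inhbb, an activin and inhibin subunit, gave 0.25 ± 0.34 and 4.68, and the secreted signal Wnt4 gave 0.09 ± 0.26 and 3.71. Each of these genes responded less in AF2 KO than in AF2 WT by the test of the difference, with the highest adjusted p, 2.5e-08 by limma, for Inhbb.

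The receptor genes and repressed targets fixed by name did not pass the test either. Pgr, the progesterone receptor, had levels of 1.89, 1.96 and 1.70 with E2 in AF2 KO, against 2.38, 2.10, 1.93 and 2.27 with placebo. The highest E2 array lay above the lowest placebo array, and the difference was −0.32 ± 0.12 (SE), adjusted p = 0.187 by limma, against 2.43 in AF2 WT. Greb1, an ERα cofactor and target, gave 0.85 ± 0.49 in AF2 KO, with overlapping groups, against 4.34 in AF2 WT. Greb1 levels in AF2 KO, −2.34 ± 0.78 with E2 (SD, n = 3) and −3.19 ± 0.49 with placebo (SD, n = 4), were both below that of AF2 WT placebo, 2.34 ± 0.53 (SD, n = 4). Cyp1b1, which hydroxylates estrogens, and the tight-junction gene Cldn1 gave 0.22 ± 0.39 and 0.08 ± 0.55 in AF2 KO, against −4.83 and −5.24 in AF2 WT. Of the remaining fixed targets, the iron-binding secreted protein gene Ltf had 1.16, 3.41 and 1.27 with E2, against 0.12, 0.43, 1.29 and −0.57 with placebo, and its 1.64 ± 0.51 missed the call at adjusted p = 0.0809 by limma. Ccnd1, C3, Lif and Areg gave −0.33, −0.23, 0.70 and 1.22, none called, with Lif and Areg dim.

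**Figure D2:**
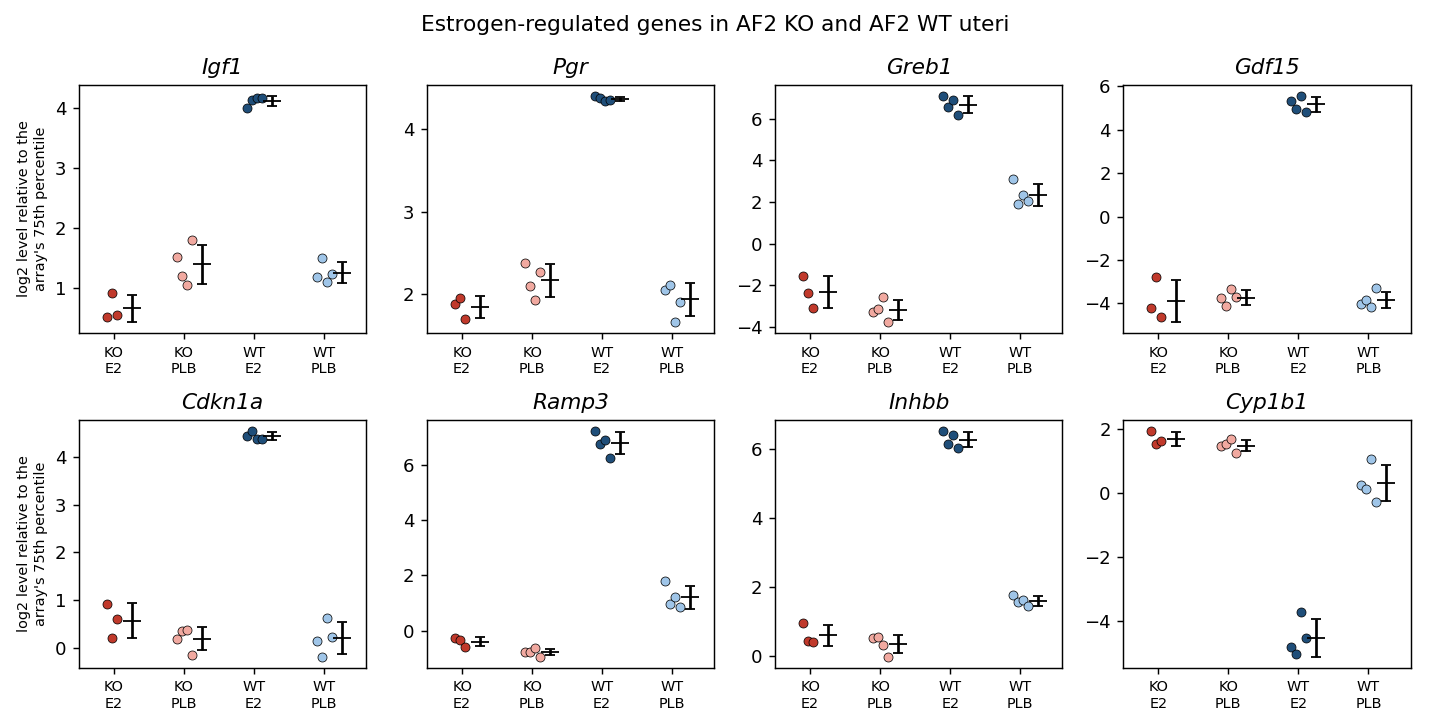
Levels of 8 estrogen-regulated genes on each array (points) with the mean and SD beside them, for AF2 KO E2 (n = 3), AF2 KO placebo, AF2 WT E2 and AF2 WT placebo (n = 4 each). The vertical axes are log2 levels relative to the array's 75th percentile and differ between panels. AF2 KO E2 arrays sit near AF2 KO placebo arrays in every panel; Igf1 is the gene of these 8 called in AF2 KO, where it is lower with E2.

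Of 40 estrogen-induced genes fixed as a list, 36 were bright, and in AF2 KO 0 of them rose and 1 fell. Their median response was −0.01 in AF2 KO, beside 0.03 over all bright genes, and 2.51 in AF2 WT, where 28 rose and 3 fell. Of 26 estrogen-repressed genes, all bright, 0 rose and 1 fell, the gelatinase gene Mmp2. Their median was 0.08 in AF2 KO and −0.90 in AF2 WT, where 18 fell and 4 rose. The medians of both lists thus lay near that of all bright genes in AF2 KO. Single bright genes ranged over −0.83 to 1.64 in the first list and −0.86 to 1.27 in the second. At an unadjusted p under 0.05 the lists held 8 of 36 and 5 of 26 bright genes, against 3562 of all 24368. Over all bright genes 1.9% were called higher and 0.373% lower.

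The machinery of growth that follows the hormone in AF2 WT was not called in AF2 KO. Of 28 ribosome biogenesis genes, 28 rose in AF2 WT (median 1.73) and 0 were called in AF2 KO (median −0.08, range −0.24 to 0.42). Of 20 tRNA synthetase genes, 19 rose in AF2 WT (median 1.76), and 0 were called in AF2 KO (median −0.05). Of 20 bright immediate-early genes, 19 rose in AF2 WT, with a median of 2.24, and 0 were called in AF2 KO, with a median of −0.07. ER chaperones and cholesterol synthesis genes had medians of 0.05 and 0.02 in AF2 KO and 0.87 and 1.87 in AF2 WT, again with 0 called in AF2 KO. At an unadjusted p under 0.05 these 5 lists held 3, 3, 1, 0 and 0 bright genes in AF2 KO, against 3562 of all 24368 bright genes. At the 2.27% called over all bright genes, lists of this size would hold few calls or none. DNA replication and mitosis genes had 0 called in AF2 KO, with medians of −0.02 and −0.04, at a time when AF2 WT had medians of 0.07 and −0.13. Proline and serine synthesis genes had a median of 2.33 in AF2 WT and −0.04 in AF2 KO; the dim gene Pycr1, the last step of proline synthesis, was called lower in AF2 KO (−1.31 ± 0.35) and higher in AF2 WT (3.42). Its AF2 KO differences on slides 1, 3 and 4 were −2.39, −0.27 and −1.85, and the call was lost without 4 of the 7 arrays.

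Igf1, the growth factor by which E2 acting on uterine stroma drives the epithelium, moved opposite ways in the 2 genotypes. Its brightest probe (chromosome 10, 87399581 to 87399640, mm9) had levels of 0.51, 0.91 and 0.54 with E2 in AF2 KO, against 1.51, 1.20, 1.05 and 1.79 with placebo. All 3 E2 arrays lay below all 4 placebo arrays. Igf1 fell by 0.74 ± 0.14 on the log2 scale (95% interval −1.03 to −0.45, adjusted p = 0.00424 by limma), which is 1.67-fold, while it rose by 2.87 in AF2 WT. The difference between the responses was −3.61 ± 0.19 (SE), adjusted p = 1.95e-13 by limma. Within slides 1, 3 and 4 the AF2 KO difference was −1.01, −0.14 and −1.26, so slide 3 shows little of it. The call was kept when any 1 of the 7 arrays was left out, but by limma missed the threshold with the 15 arrays of the AF2 line (adjusted p = 0.0547) and with the 7 AF2 KO arrays (adjusted p = 0.201). Of the other 4 Igf1 probes, the overlapping pair at 87393561 to 87393640 gave −0.52 and −0.45, both called, and those at 87395924 and 87378456 gave −0.41 and −0.06, not called. The rest of the IGF system, 18 further bright genes of ligands, receptors and binding proteins, had 0 called.

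Genes of the extracellular matrix, the collagen and glycoprotein scaffold that uterine stroma and muscle secrete, made up 15 of the 91 falls. Of 132 bright genes on 4 matrix lists, 15 fell (11.4%, against 0.373% of all bright genes) and 0 rose. Their median was −0.27, and 112 of 132 (84.8%) were below 0, against 44.8% of all bright genes. The median on slides 1, 3 and 4 was −0.30, −0.18 and −0.41. The lists were chosen with earlier results of these data known, so this count is a description. Without AF2 KO E2 replicate 1 only 1 of the 132 was called lower, and without AF2 KO E2 replicates 2 and 3 there were 8 and 7. Without AF2 KO placebo replicates 1, 2 and 4 there were 5, 7 and 4, with the 7 AF2 KO arrays alone 0, and with slide as a fixed block 22. The 15 kept their direction in every fit run. Their groups did not overlap for 14 of 15, the exception being the elastic-fibre gene Fbln1. Being called largely fixes this, since the same held for 87 of all 91 falls (95.6%). Over all 132 matrix genes, called or not, every E2 array lay below every placebo array for 50 (37.9%), against 6.87% of all bright genes.

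Fibril-forming and network collagens were among them. Col1a2, a chain of the main fibrillar collagen (chromosome 6, 4490619 to 4490678, mm9), had levels of 5.81, 6.04 and 5.92 with E2 in AF2 KO, against 7.17, 6.76, 6.71 and 7.27 with placebo. The groups do not overlap, and Col1a2 fell by 1.05 ± 0.26 (adjusted p = 0.0288 by limma), or 2.07-fold. It also fell in AF2 WT, by 0.66, and the difference between the responses, −0.39, was not called. Col4a1, of basement membranes, fell by 0.69 ± 0.18 and Col16a1 by 0.53 ± 0.11 in AF2 KO, where AF2 WT gave 0.29 and 0.12, not called. Of 39 bright collagen genes, 6 fell and 31 were below 0.

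All 3 chains of classical collagen VI, which forms beaded filaments around cells, fell in AF2 KO and rose in AF2 WT. Col6a3 had levels of 3.24, 3.55 and 3.53 with E2 in AF2 KO, against 4.17, 3.96, 3.99 and 4.53 with placebo, again without overlap. It fell by 0.72 ± 0.16 (adjusted p = 0.012 by limma) and rose by 1.87 in AF2 WT. Col6a2 fell by 0.82 ± 0.21 in AF2 KO and rose by 1.71 in AF2 WT, and Col6a1 fell by 0.65 ± 0.16 and rose by 0.63. The differences between the responses were −2.59, −2.53 and −1.28 for Col6a3, Col6a2 and Col6a1, each called (adjusted p = 4.26e-05 or lower by limma). Of these 3, Col6a3 lost its call without AF2 KO E2 replicate 1 and kept it without each of the other 6 arrays; Col6a1 and Col6a2 lost theirs without 6 of the 7, all but AF2 KO placebo replicate 3.

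Enzymes that process or cut the matrix followed. Loxl2, which cross-links collagen, had levels of 0.19, 0.39 and 0.10 with E2 in AF2 KO, against 1.44, 1.16, 1.15 and 1.93 with placebo, and fell by 1.19 ± 0.32; it rose by 0.75 in AF2 WT, and the difference of −1.93 was called. Mmp2, a gelatinase, had 1.90, 2.31 and 1.83 with E2, against 2.96, 2.90, 2.62 and 3.00 with placebo. It fell by 0.86 ± 0.17 (adjusted p = 0.0053 by limma), where AF2 WT gave −0.06, and the difference of −0.80 was called; the AF2 KO call was lost without AF2 KO E2 replicate 1. P3h3, a collagen prolyl hydroxylase, fell by 0.43 ± 0.11 in AF2 KO and by 0.54 in AF2 WT. Lum, a proteoglycan that spaces collagen fibrils, fell by 0.76 ± 0.20 in AF2 KO and by 1.85 in AF2 WT, so that the difference between the responses was positive, 1.09, and called. The laminin gene Lama4 did likewise, with −0.56 in AF2 KO, −1.27 in AF2 WT and a difference of 0.71.

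The other glycoproteins that fell were Fbn1 (fibrillin), by 0.79, Fbln1, by 0.71, the laminin gene Lamc1, by 0.53, and Ltbp3, which holds latent TGF-β in the matrix, by 0.45. Ltbp3 had tight groups, 3.86, 3.83 and 3.83 with E2 in AF2 KO, against 4.26, 4.27, 4.28 and 4.36 with placebo, and its call was kept without any 1 of the 7 arrays. In AF2 WT, 6 of the 15 matrix genes fell, 4 rose and 5 were not called. The difference between the responses was negative for 8, positive for 2 and not called for 5. Choosing the 15 by their AF2 KO fall favours a negative difference, since the difference contains that fall. Over all 132 bright matrix genes it was called negative for 46 and positive for 33. In AF2 WT, 59 of the 132 fell and 37 rose. Of the 15, 13 had their smallest difference on slide 3.

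**Figure D3:**
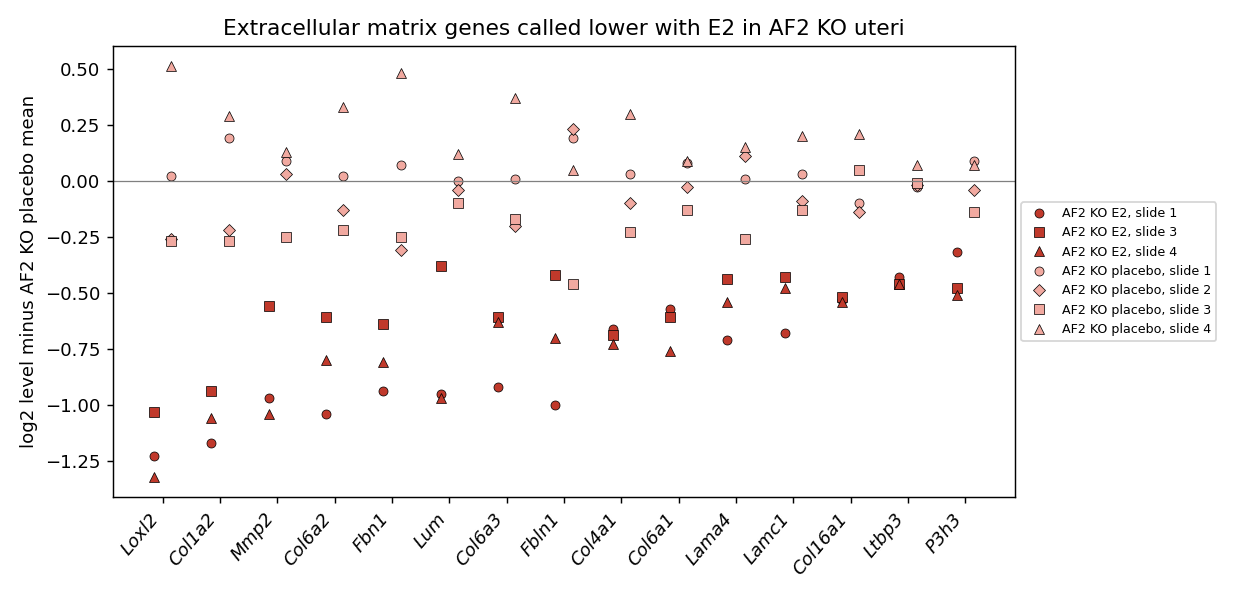
Level of the 15 matrix genes called lower in AF2 KO, as the log2 level on each array minus the AF2 KO placebo mean of the gene. Dark points are the 3 AF2 KO E2 arrays and pale points the 4 AF2 KO placebo arrays, with the slide shown by the symbol; all dark points lie below all pale points of the same gene except for Fbln1, and the slide 3 E2 array lies nearest to placebo for many genes.

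In bulk tissue, fewer cells of a type and less RNA per cell cannot be told apart. Of 16 stroma markers, all bright, 2 fell, Col1a2 and Lum, both also on the matrix lists, and the median was −0.19. The summed linear level of these markers was 576.1 to 625.5 on AF2 KO E2 arrays and 708.1 to 865.8 on AF2 KO placebo arrays. That sum includes Col1a1, Col1a2, Col3a1, Dcn and Lum, which are on the matrix lists, so it is not separate from the matrix falls. The median deviation of the stroma markers from the placebo mean was −0.14, −0.12 and −0.25 with E2, against 0.03, −0.11, −0.09 and 0.04 with placebo. Of 14 smooth muscle markers 0 were called but 14 were below 0, with a median of −0.38, and their sum was 779.6 to 1118 with E2 and 1013 to 1208 with placebo. Epithelium markers (19 bright, 0 called) had a median of 0.12 and a sum of 292.7 to 376.7 with E2 and 254.6 to 324.3 with placebo. Endothelium markers (15 bright, 0 called) had a median of −0.10. Mesothelium and nerve markers (10 bright, 0 called) had a median of −0.31 and a sum of 11.3 to 12.8 with E2 and 14.6 to 16.8 with placebo, without overlap. Adipocyte markers (9 bright, 0 called) had a median of −0.49, 8 of 9 below 0, with sums of 20.7 to 73.3 with E2 and 22.2 to 97.2 with placebo. The part of cell composition in the matrix falls was not tested.

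To show what these promoters hold, the 250 bases before the RefSeq start of Igf1 and Col1a2 are given 5′ to 3′ on the coding strand (RefSeq, GRCm38.p6). Igf1 lies at chr10:87860861-87861110 and Col1a2 at chr6:4505368-4505617, both on the plus strand. Capitals mark matches, on either strand, to the estrogen receptor hexamer AGGTCA, the CCAAT box CCAAT, the TATA box TATAAA and the GC box GGGCGG; no matches overlapped.
Igf1: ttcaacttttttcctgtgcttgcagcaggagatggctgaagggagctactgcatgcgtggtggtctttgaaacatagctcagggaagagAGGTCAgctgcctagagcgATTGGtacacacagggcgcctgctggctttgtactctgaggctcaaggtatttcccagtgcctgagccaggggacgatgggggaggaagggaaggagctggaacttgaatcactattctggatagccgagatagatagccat
Col1a2: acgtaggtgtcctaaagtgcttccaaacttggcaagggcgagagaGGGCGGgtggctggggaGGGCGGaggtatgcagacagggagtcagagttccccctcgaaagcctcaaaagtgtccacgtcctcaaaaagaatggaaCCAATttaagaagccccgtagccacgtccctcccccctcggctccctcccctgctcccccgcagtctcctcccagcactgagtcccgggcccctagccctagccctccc
Of the 91 bright genes that fell, 62 had a promoter in the table. The hexamer AGGTCA was in 5 of 62 (8.06%), against 11.4% of 12982 promoters of bright genes and 14% of all 32851. The full estrogen response element, a palindrome of that hexamer with 3 free bases between, was in 0 of 62 and in 0.0639% of all promoters. The GC box was in 61.3% of the 62, against 53.5% of those of bright genes, the CCAAT box in 35.5%, against 35.7%, and the TATA box in 2 of 62 (3.23%), against 8.22%. These matches describe 250 bases only and are no binding sites.

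The other large falls came from genes of several kinds. Frzb, a secreted Wnt antagonist, had levels of −4.47, −3.98 and −4.50 with E2 in AF2 KO, against −2.83, −2.28, −3.75 and −3.21 with placebo, and fell by 1.30 ± 0.33, with −1.64, −0.22 and −1.29 on slides 1, 3 and 4. It was the single gene called of 39 bright Wnt pathway genes, whose median was −0.06. Kcp, a chordin-like modulator of BMP signalling, fell by 1.20 ± 0.26, and the proprotein convertase gene Pcsk6 by 0.92 ± 0.25. Serpinf1, an anti-angiogenic serpin, fell by 0.92 ± 0.22 and the apelin receptor gene Aplnr, of vessels, by 0.94 ± 0.22. Aplnr was the single gene called of 25 vascular factors. Pdgfrl, Pcdh10, C1qtnf2 and Ccdc80 fell by 1.24, 1.24, 1.09 and 0.92, and Gm13304 fell by 1.11. All but Kcp lost their call without 3 or more of the 7 arrays.

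A pair of falls run against very large rises in AF2 WT. The zinc finger gene Zfp469 had levels of −3.20, −2.59 and −3.24 with E2 in AF2 KO, against −2.07, −2.34, −2.03 and −1.93 with placebo. It fell by 0.92 ± 0.20 and rose by 5.12 in AF2 WT, a difference of −6.04 (adjusted p = 1.26e-14 by limma); its AF2 KO call was lost without AF2 KO E2 replicate 1. Rap1gap, which switches off the GTPase Rap1 and was chosen after its values were seen, had −0.01, 0.08 and 0.11 with E2, against 0.72, 0.64, 0.61 and 1.08 with placebo. It fell by 0.71 ± 0.13 and rose by 3.27 in AF2 WT, and kept its call without any 1 of the 7 arrays. Of the 91 bright genes that fell in AF2 KO, 39 also fell in AF2 WT (42.9% of the 91 and 0.545% of the AF2 WT falls), 26 rose (28.6%) and 26 were not called. Over all bright genes 29.4% fell and 28% rose in AF2 WT. The 2 comparisons share no arrays but share the estimate of the spread of each probe, so their calls are not independent.

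The largest falls were in immunoglobulin light chains, made by plasma cells. The lambda constant 2 transcript (ENSMUST00000103749; chromosome 16, 19198704 to 19198763, mm9) had levels of −0.64, 1.13 and −1.43 with E2 in AF2 KO, against 2.27, 2.71, 3.93 and 2.91 with placebo, and fell by 3.27 ± 0.75 (adjusted p = 0.0168 by limma). Lambda constant 3 fell by 3.06 ± 0.79. The call of lambda constant 2 was lost without 3 of the 7 arrays and that of lambda constant 3 without 5. AF2 WT arrays had lower lambda constant 2 levels in both treatments, −0.37 ± 1.43 with E2 and 0.36 ± 0.56 with placebo (SD, n = 4 each). The kappa variable 7-33 transcript, dim, was not well above background on any E2 array and was at least 10.31-fold lower there. Its levels were −7.67, −8.13 and −7.73 with E2, against −2.79, −5.91, −3.43 and 0.66 with placebo. In AF2 WT it lay at background level in both treatments, at −7.47 ± 0.46 with E2 and −7.63 ± 0.32 with placebo (SD, n = 4 each). Of 60 bright immunoglobulin features, chosen after these values were seen, 2 fell and 0 rose, with a median of −0.52 that was −0.83, 0.38 and −0.90 on slides 1, 3 and 4. Constant and variable probes can share transcripts of related genes. Of the other lymphocyte markers, 14 bright, 0 were called lower. Their median was 0.20, with −0.18, 0.73 and 0.19 on slides 1, 3 and 4. Ncr1, a receptor of natural killer cells, was called higher at 0.85 ± 0.23, a call lost without 5 of the 7 arrays.

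Interferon-response genes differed between the AF2 KO E2 arrays. All 22 bright members were above 0, with a median of 0.44 and 0 called, against −0.83 in AF2 WT. The median deviation from the placebo mean was −0.11, 0.74 and 0.57 on the 3 AF2 KO E2 arrays, so replicate 1 did not show it. On the AF2 KO placebo arrays it was 0.08, 0, −0.04 and −0.01. Oas3, an RNA sensor, dim, was called at 1.08 ± 0.30 and lost its call without 6 of the 7 arrays. Ribosomal protein genes, read as a group of abundant transcripts, had a median of 0.17 with 32 of 32 above 0 and 0 called. Their median deviation was 0.37, 0.05 and 0.10 on the AF2 KO E2 arrays, against 0.10, 0.15, −0.05 and −0.19 with placebo, so the groups overlap. Macrophage markers had a median of −0.24 over 13 bright genes, with −0.66, 0.40 and −0.47 on slides 1, 3 and 4. Of them 1 was called, Itgam, which rose by 0.82 and whose probe is described below. Granulocyte, adipocyte, ovary, bladder, mesothelium, endothelium and epithelium lists had 0 called, and their medians over bright genes were 0.31, −0.49, 0.06, −0.09, −0.31, −0.10 and 0.12. The lowest p in each belonged to Il5ra (0.73), the dim gene Ucp1 (0.68), Ovgp1 (0.37), Acta1 (−0.64), S100b (−0.83), Emcn (−0.35) and Cldn7 (0.41).

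The 463 bright genes that rose had a different make-up. Their median was 0.92, and 212 rose at least 2-fold, against 10 of 91 falls. Of the 463, 287 were features read by a probe for something other than a RefSeq mRNA, such as lincRNA windows and unplaced transcripts. The other 176 were read by a RefSeq mRNA probe. These are 3.03% of the 9465 bright features of the first kind and 1.18% of the 14903 bright genes of the second. By mean level over all arrays, 190 of the 463 lay under −3, where 5406 bright genes lie. The 15 largest rises that held on slides 1, 3 and 4 ran over 2.38 to 3.04 and were Riken clones, long non-coding RNA features and other transcripts known by a clone, probe or accession name. 5430431A17Rik had 3.85, 2.43 and −0.11 with E2 in AF2 KO, against −0.66, −0.59, −0.70 and −1.99 with placebo, and gave 3.04 ± 0.84, a call lost without 6 of the 7 arrays. AK156275 had 3.28, 4.29 and 3.16 with E2, against 1.21, 0.84, 1.48 and 1.18 with placebo, and gave 2.40 ± 0.36. All 15 were called lower with E2 in AF2 WT. On placebo arrays all 15 were already lower in AF2 KO than in AF2 WT, with differences of −3.16 to −2.03. The AK156275 means were 3.58 with E2 and 1.18 with placebo in AF2 KO, against 1.81 and 3.63 in AF2 WT. Of the 463, 270 were called lower in AF2 WT (58.3% of the 463 and 3.77% of the AF2 WT falls), 11 higher (2.38%) and 182 not at all. For all bright genes the AF2 WT shares were 29.4% lower and 28% higher.

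Many of the bright probes that rose carry simple repeats. The classes here were chosen after the values were seen. The stretches below are 30 bases of 60-base probes whose gene labels name well-known genes; they are printed because the gene label alone would hide the shared run, whose bases are in capitals.
Ung, bases 22 to 51 of the probe: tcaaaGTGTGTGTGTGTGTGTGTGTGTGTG
Spag7, bases 1 to 30: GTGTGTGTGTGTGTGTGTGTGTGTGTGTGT
Fgf23, bases 1 to 30: cCACACACACACACACACACAtacatgtaa
Itgam, bases 1 to 30: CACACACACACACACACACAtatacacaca
Snap25, bases 1 to 30: CACACACACACACACACACAaagtggattt
They lie, on mm9, at chr5:114588731-114588790 (Ung, a uracil DNA glycosylase), chr11:70477360-70477419 (Spag7), chr6:127030758-127030817 (Fgf23, a hormone of phosphate balance), chr7:135261755-135261814 (Itgam, an integrin of myeloid cells) and chr2:136607709-136607768 (Snap25, a protein of synaptic vesicle fusion). The run is 34, 30, 20, 20 and 20 bases long, and each probe shares 16 bases with probes of 111 to 120 other features.

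The probes of Fgf23, Itgam and Snap25, which share a CA run, gave like levels. Fgf23 had levels of 5.91, 5.20 and 5.68 with E2 in AF2 KO, against 4.95, 4.84, 4.66 and 4.28 with placebo. Itgam had 6.07, 5.35 and 5.87 with E2, against 5.19, 5.05, 4.94 and 4.58 with placebo. Snap25 had 5.82, 5.12 and 5.56 with E2, against 4.95, 4.78, 4.66 and 4.30 with placebo. In all 3 the E2 arrays stand above the placebo arrays and keep the same order, with replicate 2 lowest. Their rises were 0.91 ± 0.19, 0.82 ± 0.18 and 0.83 ± 0.19, and in AF2 WT they fell by 0.57, 0.49 and 0.57. The probes with a run of GT, those of Ung, Spag7 and Ubtf, rose by 0.70, 0.70 and 0.56, with 0.10, 0.02 and 0.07 in AF2 WT, not called.

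Over all bright probes, 1.69% were called higher in AF2 KO. Of 190 with a tandem repeat of at least 20 bases (units of 1 to 4 bases), 66 rose (34.7%), and of 478 with 12 to 19 bases 59 rose (12.3%). Of 59 with a CA repeat 44 rose (74.6%) and of 121 with a TG repeat 35 rose (28.9%), against 46 of 488 with another repeat (9.43%). Those 488 include 68 with a GAA repeat, of which 0 were called. The median response was 0.52 for GAA, 0.59 for TG and 0.85 for CA repeats, against 0.03 for all bright probes. Of 265 without such a repeat that share 16 bases with 10 or more features 26 rose (9.81%). Of 26031 with neither, 244 rose (0.937%) and 101 fell (0.388%). The median deviation of CA-repeat probes was 1.13, 0.58 and 0.87 on the 3 AF2 KO E2 arrays, against 0.19, 0.11, 0.02 and −0.34 on AF2 KO placebo arrays. On AF2 WT arrays it was −0.12 to 0.26 with E2 and 0.40 to 0.81 with placebo. A fit restricted to probes with neither, an alternative added after seeing the data, put the bright genes called higher at 142 and the bright genes called lower at 54. What these probes bind was not tested.

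**Figure D4:**
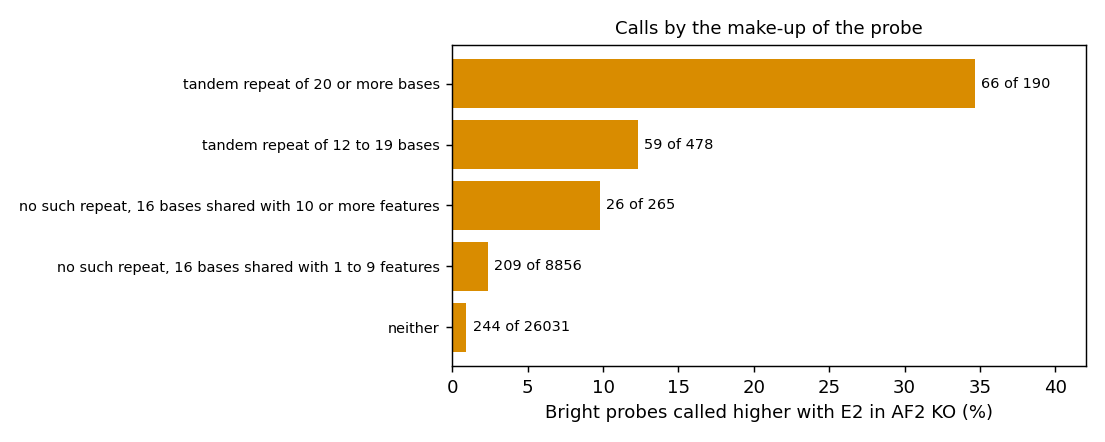
Percentage of bright probes called higher with E2 in AF2 KO, by the make-up of the probe, with the number called and the number in the class beside each bar. The share is 34.7% for probes with a tandem repeat of 20 or more bases and 0.937% for probes with neither a repeat nor 16 bases shared with another feature.

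Among RefSeq mRNA probes with neither a repeat nor shared bases, of 12067 bright genes, 49 rose (0.406%) and 71 fell. The falls rest on the arrays in the fit: over all bright genes 10 were left without AF2 KO E2 replicate 1 and 0 with the 7 AF2 KO arrays alone. The 8 of these 49 with the highest mean level were chosen after their values were seen. Usp17la, a deubiquitinating enzyme, had levels of 1.06, 0.93 and 1.01 with E2 in AF2 KO, against −0.60, −0.81, −0.47 and −0.81 with placebo. It rose by 1.67 ± 0.21 (adjusted p = 0.000135 by limma), kept its call without any 1 of the 7 arrays, and fell by 1.11 in AF2 WT. Its placebo mean was −0.67 in AF2 KO and 0.8 in AF2 WT. Ifrd1, a transcriptional regulator, rose by 0.37 ± 0.09 in AF2 KO and by 1.53 in AF2 WT. Nampt, of NAD synthesis, rose by 0.52 ± 0.14, but its groups overlap and slide 3 had −0.04. The other 5 rose by 0.37 to 0.66, the highest being Ermap, an erythroid membrane protein, which lost its call without AF2 KO E2 replicate 1.

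Dim probes shifted as a body. Of 10373 dim genes, 494 were called higher (4.76%) and 5 lower (0.0482%), 4.81% in all, with a median of 0.38 against 0.03 for bright genes. With quantile normalization the median over dim genes was −0.02 and the split 155 and 24. The median level of dim probes on an array was −6.27, −6.58 and −6.88 with E2 in AF2 KO, against −7.37, −7.50, −7.35 and −7.27 with placebo. The groups do not overlap and differ by 0.80. Over all 35 assignments of the 7 arrays the exact permutation test, two-sided, returned p = 0.0571, the smallest it can give here, since its p is 2 times the smaller one-sided share. The difference was 0.30 with normexp background correction (exact permutation p = 0.114), whose offset of 50 intensity units narrows log2 differences near background. It was 0.01 in the authors' matrix, which holds 7935 of the 19861 dim probes. It was 0 with quantile normalization, which gives every array 1 distribution. In intensity units the medians of dim probes in the main processing are 5.22 to 7.32 with E2 and 3.49 to 5.09 with placebo. On AF2 WT arrays the order was the other way, −7.25 to −7.10 with E2 and −6.88 to −6.32 with placebo. The part of this shift in the bright rises was not tested. Without AF2 KO E2 replicates 1 and 2 the dim calls numbered 145 and 269, without AF2 KO placebo replicates 2 and 4 they numbered 296 and 290, and without AF2 KO E2 replicate 3 they were 724.

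Chemosensory receptor genes, for smell, pheromones and taste, are read here as a class the uterus is not known for. Their median level was −6.25, −6.64 and −6.97 on AF2 KO E2 arrays, against −7.54, −7.55, −8.07 and −7.86 on AF2 KO placebo arrays. They differed by 1.14 without overlap, and the exact permutation test, two-sided, again returned its smallest value, p = 0.0571. Of 1418 such genes, 107 were called higher (7.55%) and 0 lower, 19 of 225 bright (8.44%) and 88 of 1193 dim (7.38%), against 1.9% of all bright and 4.76% of all dim genes. The difference was 0.33 with normexp and its offset (exact permutation p = 0.114) and 0.27 with quantile normalization. It was 0.11 in the authors' matrix, which holds 532 of the 1418.

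**Figure D5:**
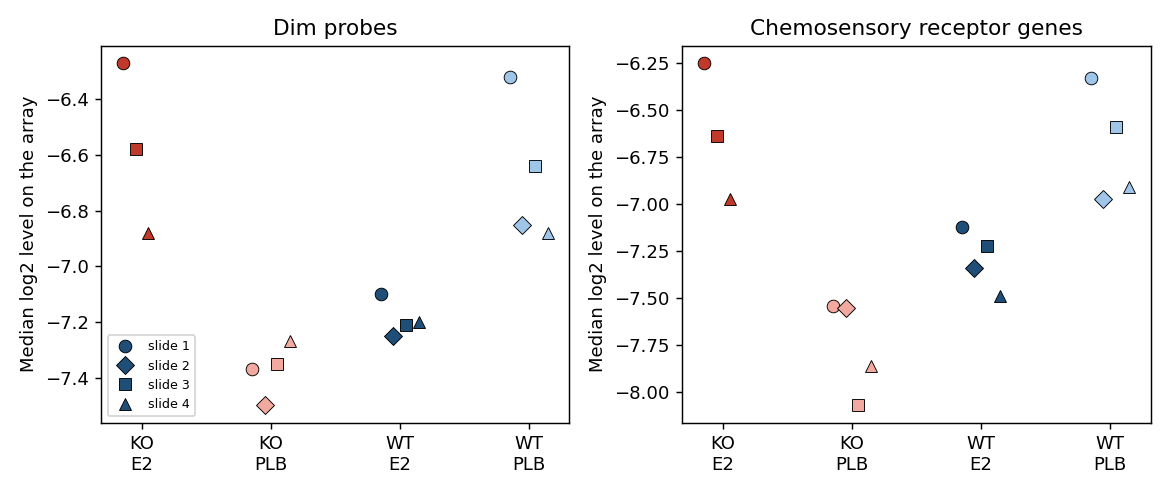
Median log2 level of dim probes (left) and of chemosensory receptor genes (right) on each array, by group, with the slide shown by the symbol. AF2 KO E2 arrays lie above AF2 KO placebo arrays in both panels, and AF2 WT E2 arrays lie below AF2 WT placebo arrays.

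The largest dim rises well above background on all E2 arrays had placebo signals near background. Slc22a22, an organic anion carrier, and Olfr911-ps1, an olfactory pseudogene, were not well above background on any placebo array and were at least 5.32-fold and 6.71-fold higher with E2. Atp13a4, a P-type ATPase, was at least 6.75-fold, Gm5524 at least 5.36-fold and A_55_P2050526 at least 5.62-fold higher. These bounds set the mean of the E2 arrays against the lowest signal well above background on each placebo array, or the probe's own signal where that was higher. Slco6b1, an organic anion transporter, had levels of −2.44, −2.66 and −3.50 with E2, against −6.12, −5.83, −5.84 and −8.48 with placebo. It was called higher, but only 1 of the 4 placebo arrays was well above background, so no size is given. All 6 were called lower with E2 in AF2 WT. Of the 5 dim falls, 2 were measured on all placebo arrays, Pycr1 and the homeobox gene Alx1, which fell by 1.23 ± 0.30.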

How the data were processed

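One-colour Cy3 arrays (Agilent, 60-base probes) were scanned, and per the file headers the spots were quantified with version 10.10.1.1 of Feature Extraction. The authors deposited the scanner's intensity values after that program's background subtraction, spatial detrending and replacement of spots near background by surrogate values, and a matrix of log2 values of the same arrays; limma is named, without a version, per the submitters' processing notes. Probe positions are on mm9, per the file headers. From the processed signal, log2 minus the 75th percentile of each array was computed over 55681 non-control probes, replicate spots averaged; 27235 probes were named through their accession. A probe is bright if well above background on all 7 AF2 KO arrays. All 31 arrays in 8 groups were fitted with limma 3.58.1 (R 4.3.3; 23 residual degrees of freedom), Benjamini-Hochberg adjusted over all probes, called under 0.05. The number of arrays limits the precision; 0 non-control spots were saturated. On simulated data with 55681 probes, 69% of changes of 1 and 14% of changes of 0.5 (log2) were called in this comparison. The simulation changed 100 bright probes by each size, with independent normal noise of each probe's spread. It held no slide effect and no shift of dim probes, so these shares describe bright probes in that setting only. Medians per array were compared by exact permutation.

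Genes named are the 15 largest bright rises and falls that kept 1 direction on slides 1, 3 and 4; up to 6 dim rises and falls measured on every array of the brighter group; 15 fixed targets with all Esr1 probes; and each list's called members or lowest p. Genes outside this rule are said to be chosen after their values were seen. Members and lists were chosen with earlier results of these data known. Motifs were searched on both strands of RefSeq promoters (GRCm38.p6), which give no mm9 position. Alternatives were another scaling, background correction, the authors' matrix, filters on dim probes, slide as a block, fewer groups, a robust prior and each array left out.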

Additional observations from a re-analysis of the deposited data

Results flagged for a closer look

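The difference between the responses, AF2 KO minus AF2 WT, passed its own limma test for many named genes, each given here on the log2 scale. Among ERα targets it was −9.14 for Gdf15, −5.19 for Ramp3, −4.44 for Inhbb, −3.85 for Cdkn1a, −3.62 for Wnt4, −3.61 for Igf1, −3.49 for Greb1, −2.75 for Pgr and −1.9 for Lif. For the genes that E2 lowers in AF2 WT it was 5.06 for Cyp1b1 and 5.31 for Cldn1. In the growth lists it was −4.73 for Pycr1, −2.97 for the isoleucyl-tRNA synthetase gene Iars, −1.98 for Fosl2, −1.65 for Mvd of the mevalonate pathway, −1.18 for the nucleolar gene Fbl and −0.46 for the chaperone gene Hsp90b1, with 0.42 for Rpl14. The epithelial gene Cldn7 gave −1.65.

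In the matrix it was −2.59 for Col6a3, −2.53 for Col6a2, −1.93 for Loxl2, −1.28 for Col6a1, −0.99 for Col4a1, −0.8 for Mmp2, −0.65 for Col16a1 and −0.52 for Lamc1, against 0.71 for Lama4 and 1.09 for Lum. Other falls gave −6.04 for Zfp469, −3.98 for Rap1gap, −1.99 for Frzb, −1.93 for Pcdh10, −1.93 for Pcsk6, −1.44 for Serpinf1 and −0.96 for Kcp. The kappa variable 7-33 transcript, below background on all AF2 KO E2 arrays, gave a fitted −5.14, and another immunoglobulin transcript, ENSMUST00000103401, gave 3.4. Immune genes gave 1.15 for Ncr1, 1.3 for Oas3 and 1.4 for Il5ra.

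Genes read by a repeat probe gave 0.49 for Ubtf, 0.6 for Ung, 0.68 for Spag7, 1.31 for Itgam, 1.4 for Snap25 and 1.48 for Fgf23. Of the genes read by a RefSeq probe without repeat, Usp17la gave 2.79, Cep162 0.97, Ermap 0.93, Kcna7 0.78 and Nampt 0.64, against −1.15 for Ifrd1. Of the largest bright rises, 5430431A17Rik gave 5.56, ENSMUST00000126260 5.53, 4930557B15Rik 4.87, A_55_P2014352 4.43, 4921504E06Rik 4.42, A_55_P2087963 4.28, BC061237 4.23, AK156275 4.22, 4930478P22Rik 4.2, 1700084M14Rik 4.07 and TC1634910 4. Long non-coding RNA features among them gave 3.84, 4.34, 4.42 and 5.38. Dim rises gave fitted values that are no measured sizes, since at most 1 of the 4 AF2 KO placebo arrays was well above background: 5.9 for Gm5524, 6.25 for Slco6b1, 6.6 for Atp13a4, 6.68 for A_55_P2050526, 6.8 for Olfr911-ps1 and 6.82 for Slc22a22.

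On AF2 KO placebo arrays, 1 of the 4 values stood far from the other 3 for a few genes. That value was −3.43 for 4930557B15Rik, −1.99 for 5430431A17Rik, −8.2 for the mitotic gene Cenpf, 2.44 for Pdgfrl and −8.48 for Slco6b1. For long non-coding RNA features on chromosomes 16 and X it was −1.59 and −5.08. Chance gives such a gap in about 5% of groups.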

How the results depend on the processing

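Replicate numbers follow accession order and pair no samples, so arrays could be paired only by slide. The main fit leaves slide out, though the correlation within slides was 0.229, and slide as a block is given as an alternative. Counts below are in the order bright probes (720), dim probes (825), bright genes higher (463), bright genes lower (91) and dim genes (499). Slide as a fixed block gave 2231, 1511, 1336, 386 and 895, and as a random block 1744, 1544, 1031, 308 and 912. The 7 AF2 KO arrays alone gave 98, 254, 73, 0 and 148; 2743 bright genes then had an unadjusted p under 0.05. Quantile normalization gave 459 and 289 probes, 269 bright genes higher and 179 dim genes. Probes with neither repeat nor shared bases, added after seeing the data, gave 264, 409, 142, 54 and 250. Normexp gave 1302 bright probes, 806 bright genes higher and 167 lower. The AF2 line alone gave 341 bright probes, 233 genes higher and 31 lower. The authors' matrix gave 234 of 7935 dim probes (2.95%), 147 bright genes lower and 151 of 4273 dim genes (3.53%). The filter on 1 group gave 393 of 4516 dim probes (8.7%, against 4.15%) and 248 of 2479 dim genes (10%, against 4.81%), so its share rose. Leaving out 1 array gave 157 to 812 bright probes, 222 to 1214 dim probes, 113 to 577 bright genes higher, 10 to 82 lower and 145 to 724 dim genes. The 15 matrix genes became 9 with quantile normalization, 23 with normexp, 0 with the AF2 KO arrays alone, and 1 to 14 with 1 array left out. The dim shift of 0.8 was 0 with quantile normalization, which gives every array 1 distribution, and 0.01 in the authors' matrix, over its 7935 dim probes. It was 0.3 with normexp, whose offset narrows differences near background, and 0.64 to 0.95 with 1 array left out. Where no construction is named, the cause was not tested. Gdf15 changed sign without AF2 KO E2 replicate 3, at 0.24. Near background, dim levels have no reliable fold.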
